A study of Mus musculus with 42 samples.

Results

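Each Hox factor was assayed in its own line of cells differentiating into motor neurons and interneurons. At day 3, HOXC9 and HOXC10 both had binding events, and HOXC6 had none, at 2797 positions of the mouse genome. These sites were chosen from the day 3 lists of binding events: the 10000 HOXC9 events with most estimated ChIP reads on chromosomes 1 to 19 and X were taken, and an event was kept where the HOXC10 list had an event within 100 bp and the HOXC6 list had none within 100 bp. They made up 27.97% of the 10000. Of the rest, 3809 HOXC9 events had both other factors (three-factor sites), 619 had HOXC6 and no HOXC10, and 2775 had neither (HOXC9-only sites). The complete HOXC9 list held 74067 events, and the 21 lists of the series held 1086685.

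The cells were mouse embryonic stem cells of the Ainv15 type, each line carrying 1 tagged Hox transgene behind a doxycycline-inducible promoter at the Hprt locus, so each factor was expressed on top of the cells' own genes. The cells grew as embryoid bodies in 1 µM retinoic acid and 0.5 µM of the Smoothened agonist SAG, and 3 µg/mL doxycycline from day 2 was followed by chromatin immunoprecipitation (ChIP-seq) at 24 h (day 3; HOXC6, HOXC8, HOXC9, HOXC10, HOXA9, HOXD9, HOXC13) or 48 h (day 4; HOXC6, HOXC9, HOXC10). Another pair of lists came from embryoid bodies given doxycycline for 12 h without retinoic acid or SAG (HOXC6 and HOXC9). Chimeras were assayed at day 3: HOXC13:C10.1 and its partner HOXC13:C10.2 place the homeodomain of HOXC10 behind N-terminal HOXC13 sequence, while in HOXC10:C13.1 and its partner HOXC10:C13.2 the order is swapped. The cofactors MEIS (day 3; lines iHoxc6, iHoxc9 and iHoxc10) and PBX (day 4; iHoxc9 and iHoxc10) were assayed by their own antibodies, with 1 library each; the MEIS libraries came from V5-tagged lines, not the Flag-tagged lines behind most HOX lists. Most HOX libraries used a Flag antibody. The day 3 HOXC10 list joined 1 library of a V5-tagged line to 2 Flag libraries, 1 of the libraries of HOXA9, HOXD9 and HOXC13 came from HA-tagged lines, and the HOXC13 transgene was human.

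Hox proteins are homeodomain transcription factors that set the position of a cell along the head-to-tail axis. In the spinal cord HOXC6 marks motor neurons at forelimb level, HOXC9 those of the thorax and HOXC10 those of the hindlimb level. HOXC9, HOXC10 and HOXC13 belong to the posterior, Abd-B-type group. This group prefers the letters TTTAT to the TAAT core of the central proteins HOXC6 and HOXC8, except that HOXC13 prefers TTTAC. MEIS and PBX are TALE homeodomain partners that bind DNA beside Hox proteins.

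Sequences of a few sites are shown, because they illustrate the letters counted further on. They are the 3 with most HOXC9 reads, the 3 with most HOXC10 reads and the strongest with the composite TGATTTAT, each 101 bp of the plus strand centred on the HOXC9 event (RefSeq, GRCm38.p6, the build mm10 of the files). Capitals mark TTTAT or its reverse complement ATAAA. They lie at chr6:99939138-99939238 (nearest protein-coding start Prok2, in an intron of a gene that codes for no protein), chr15:5941116-5941216 (Dab2, intergenic), chr6:86678593-86678693 (intron of Snrnp27), chr15:95156971-95157071 (intron of Nell2), chr14:17170886-17170986 (Rarb, intergenic), chr2:115943256-115943356 (intron of Meis2) and chr12:53637977-53638077 (intron of Npas3).
Prok2: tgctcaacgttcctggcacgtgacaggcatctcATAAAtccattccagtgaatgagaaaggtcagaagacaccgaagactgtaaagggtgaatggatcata
Dab2: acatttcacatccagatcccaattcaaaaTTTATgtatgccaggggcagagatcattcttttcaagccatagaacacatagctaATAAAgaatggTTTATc
Snrnp27: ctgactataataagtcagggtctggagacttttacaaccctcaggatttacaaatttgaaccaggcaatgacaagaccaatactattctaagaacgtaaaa
Nell2: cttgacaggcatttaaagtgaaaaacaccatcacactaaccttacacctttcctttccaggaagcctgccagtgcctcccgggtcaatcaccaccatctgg
Rarb: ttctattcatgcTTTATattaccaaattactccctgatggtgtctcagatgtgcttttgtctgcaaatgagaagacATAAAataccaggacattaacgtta
Meis2: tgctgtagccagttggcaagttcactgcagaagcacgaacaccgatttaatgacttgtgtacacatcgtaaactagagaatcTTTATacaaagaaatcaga
Npas3: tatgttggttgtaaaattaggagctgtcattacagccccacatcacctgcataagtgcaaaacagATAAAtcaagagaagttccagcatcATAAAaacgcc

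Among these, the Snrnp27 site had no TTTAT but 3 copies of TTTAC or its complement, and the Dab2 site had 3 copies of TTTAT. The Nell2 site, with most HOXC10 reads, had neither TTTAT nor TAAT. The Npas3 site carried TGATTTAT on the minus strand.

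The reads that chose the sites are given as a description only. Each list pools its libraries, so a site has 1 estimated read count per factor and no replicate spread. The median HOXC9 event of the HOXC9/HOXC10 sites had 496.4 reads, with quartiles of 387 and 738.2 and a highest value of 4848.2. That median was 605.4 at three-factor sites and 452 at HOXC9-only sites. The median HOXC10 event held 119.9 reads here and 202 at three-factor sites. The HOXC10 event was among the 10000 largest of its list at 56.3% of the HOXC9/HOXC10 sites and at 79.8% of the three-factor sites. In 2189 sites the HOXC9 and HOXC10 positions lay within 10 bp of each other. At the edges of the rule, the last HOXC9 event taken and the first left out both had 316.4 reads, and the weakest site kept had 316.5. HOXC10 lay at 91 to 100 bp in 45 sites, and 56 events were left out with HOXC10 past the limit but within 110 bp. A HOXC6 event stood just outside the limit, within 110 bp, in 20 sites and within 1 kb in 364, while 43 three-factor sites had it at 91 to 100 bp.

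Across the series, 40 libraries gave between 5.04 and 32.9 M mapped reads, and the share of reads in events ran from 0.008 to 0.527. The day 3 HOXC6 list that defines absence was the shortest of the HOX lists, with 17898 events and 0.08 and 0.07 of reads in events, against 69285 events and 0.311 and 0.304 at day 4. The part of list length in the results was not tested, except where each list was cut to 17898 events. That cut changed only the events looked for at the sites. The classes of sites stayed as chosen from the full lists, so absence of HOXC6 was not tested at equal list length. Shares of sites are given with 95% Wilson intervals and differences between classes with 95% Newcombe intervals. Both cover counting over sites only, sites near each other are not independent, and the spread between differentiations is not covered. A difference is called where its interval excludes 0. Beside most shares of single lists, motifs and positions stands that of the 10000 top HOXC9 events, to which the sites themselves belong. Patterns that combine lists were counted at the HOXC9/HOXC10 sites only, so whether they are particular to these sites was not tested. At positions shifted by 10 kb, between 0.0358% and 1.47% of the sites met an event of another list.

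The central Hox proteins HOXC8 and, a day later, HOXC6 were found at many of these sites, but with smaller events than at three-factor sites. HOXC8 at day 3 had an event at 1673 of 2797 (59.8%, interval 58.0 to 61.6), against 70.5% of all top HOXC9 events and 99.0% of three-factor sites, a difference of -39.2 percentage points (-41.1 to -37.4). HOXC6 at day 4 had one at 66.6% (72.9% of all top events, 99.1% of three-factor sites), a difference of -32.5 points (-34.3 to -30.8). Relative to HOXC9-only sites both shares were higher, by 23.8 points for HOXC8 and 28.9 for HOXC6. The events that were present were close in size to a typical event of their list. The median HOXC8 event held 84.1 reads here and 315 at three-factor sites, where the whole list had a median of 73.7. For HOXC6 at day 4 the medians were 81.2 and 414.9 reads, and 61.2 in the list. In embryoid bodies without patterning signals HOXC6 had an event at 9.83% of the sites, at 16.8% of all top events and at 28.9% of three-factor sites, a difference of -19.1 points (-20.9 to -17.3). Three-factor sites were chosen for a day 3 HOXC6 event and the HOXC9/HOXC10 sites for its absence. That choice favours the lower HOXC6 shares against three-factor sites. HOXC8, a central protein like HOXC6, was not tested apart from it.

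Both HOXC8 at day 3 and HOXC6 at day 4 had events at 1432 sites (51.2%), and 693 (24.8%) had neither. The pattern used to choose the sites, HOXC9 and HOXC10 with no HOXC6, recurred in the day 4 lists at 447 sites (16.0%). The 693 sites without either central protein differed in sequence from the 2104 with at least 1 of them. TTTAT was found in 80.8% of the former and 71.8% of the latter, a difference of -9.0 points for those with a central protein (-12.4 to -5.37). TAAT showed the opposite order, at 67.5% and 79.1%, which is a difference of 11.6 points (7.78 to 15.6). MEIS in the iHoxc9 line was present at 37.8% of sites without and 59.2% of sites with a central protein.

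The paralogs of HOXC9 were found at most of the sites. HOXA9 had an event at 96.6% (91.3% of all top events), 2.88 points below three-factor sites (-3.65 to -2.20) and 21.3 points above HOXC9-only sites (19.6 to 23.0). HOXD9 had one at 83.7% (71% of all top events), compared with 96.7% of three-factor sites and 25.8% of HOXC9-only sites, so its share differed by -13.0 and 57.9 points. HOXC9-only sites were chosen for having no day 3 HOXC10 event, and HOXA9 and HOXD9 were not tested apart from HOXC10. Both paralogs were present at 2310 sites (82.6%). HOXA9 without HOXD9 was seen at 391 sites and HOXD9 without HOXA9 at 32. The HOXA9 list was the longer, with 62885 events against 56361. Median event sizes were 226.2 reads for HOXA9 and 138.7 for HOXD9 at the HOXC9/HOXC10 sites, below the 373.6 and 253.9 at three-factor sites.

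HOXC13, the most posterior protein assayed, was found more often here than at three-factor sites. Its share was 63.1% (61.3 to 64.8), against 52.7% of three-factor sites, 60.2% of HOXC9-only sites and 57.2% of all top events, and the difference from three-factor sites was 10.3 points (7.92 to 12.7), in the same direction on 20 of 20 chromosomes. Its events were also larger here than at three-factor sites, with a median of 208.8 reads against 170.6. At HOXC9-only sites the median was 219.35. Sites with HOXC13 held TTTAT more often (79.6%) than sites without it (64.5%), by 15.2 points (11.7 to 18.7). HOXC9 in embryoid bodies was likewise at 79.6% of sites with HOXC13 and 58.0% of those without, a difference of 21.7 points (18.1 to 25.2). HOXC9 reads at day 3 moved with this split: HOXC13 was at 72.0% of the 1399 sites with more HOXC9 reads and 54.1% of the other 1398, and the part of event size was not tested within it.

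HOXC9 itself was found again in the other conditions. At day 4 it had an event at 96.5% of the sites (94.2% of all top events), and in embryoid bodies without retinoic acid and SAG at 71.6% (68.6% of all top events). The embryoid body share was 7.77 points above that of three-factor sites (5.50 to 10.0), and the difference from HOXC9-only sites, -1.90 points (-4.24 to 0.44), was not called, but was called with a limit of 200 bp (-3.37, interval -5.64 to -1.08) and with the top 20000 events (-4.48). The day 4 difference from three-factor sites was 1.28 points (0.31 to 2.23), and it turned to -0.36 with a distance limit of 50 bp. HOXC10 at day 4 had an event at 1832 sites, 65.5% (51.9% of all top events), 11.2 points below three-factor sites (-13.4 to -8.97) and 54.2 points above HOXC9-only sites. HOXC9-only sites were chosen for having no day 3 HOXC10 event, which favours the latter order. The order of day 4 HOXC10 against three-factor sites depended on the day 3 HOXC10 reads: among sites of either class with 100 to 200 of them, its share was 4.68 points higher at the HOXC9/HOXC10 sites. Day 4 HOXC9 without HOXC10 was seen at 893 sites, and HOXC10 without HOXC9 at 25.

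**Figure D1:**
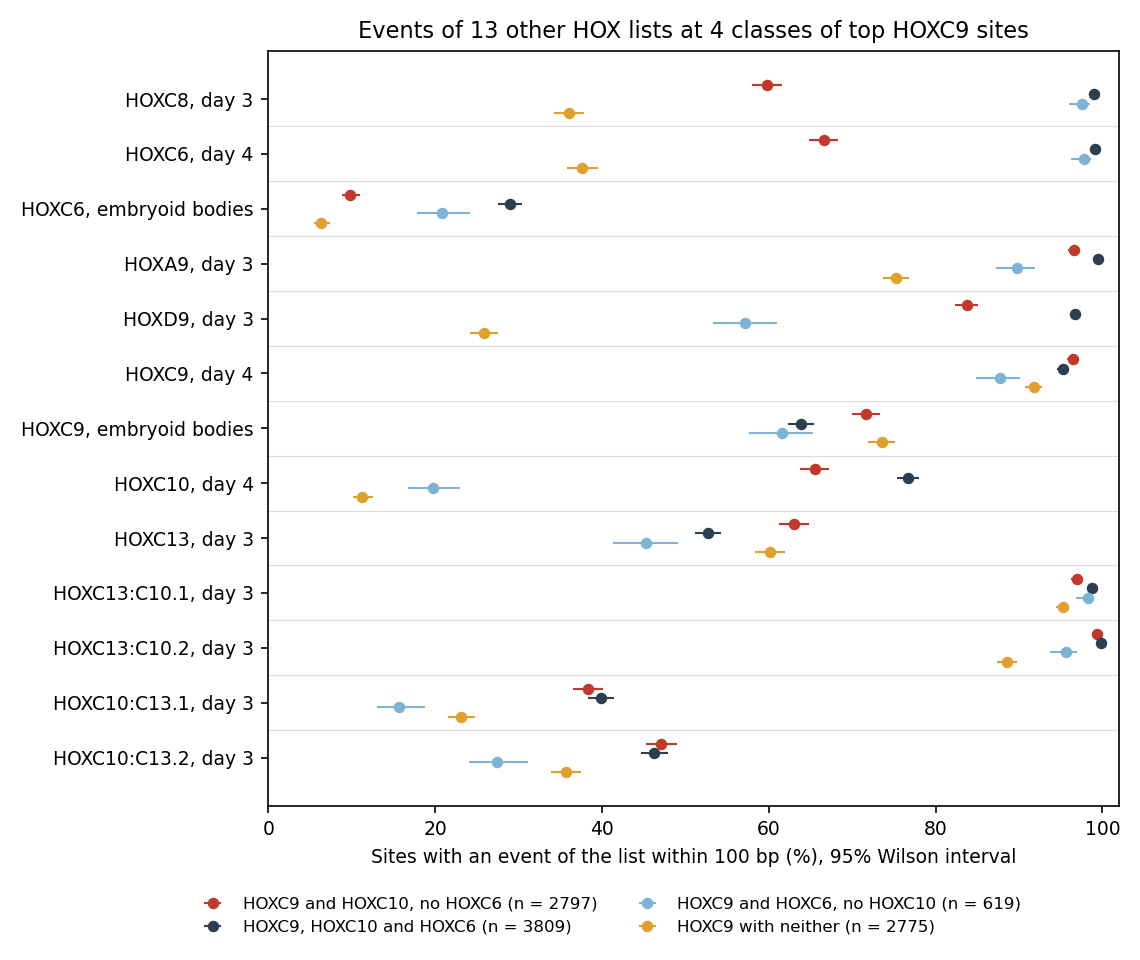
Share of sites (percent, x axis) with an event of each of 13 other HOX lists within 100 bp, for the 4 classes of top HOXC9 events (colours), with 95% Wilson intervals as bars. The HOXC9/HOXC10 sites (red) lie between HOXC9-only and three-factor sites for HOXC8, HOXD9 and HOXC10, and above three-factor sites for HOXC13.

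The chimeras that carry the HOXC10 homeodomain were at nearly all of these sites, and the reverse chimeras at fewer. HOXC13:C10.1 had an event at 97.0% (97.3% of all top events) and HOXC13:C10.2 at 99.3% (96.3% of all top events), and their shares differed from those of three-factor sites by -1.81 (-2.57 to -1.10) and -0.469 points (-0.862 to -0.151), both without a call within the first 2500 HOXC9 ranks (-0.551 and -0.16). HOXC10:C13.1 had one at 38.3% (33.3% of all top events) and HOXC10:C13.2 at 47.1% (42.4%). Against three-factor sites these last shares differed by -1.53 (-3.90 to 0.858) and 0.837 points (-1.60 to 3.27), neither called. Their direction depended on the processing: with the top 20000 HOXC9 events the differences were -3.18 (-4.93 to -1.42; called) and -1.33 points (not called), and among sites with 100 to 200 HOXC10 reads they were 8.48 and 7.13 points, both called. Against HOXC9-only sites the HOXC10:C13 shares were 15.2 and 11.4 points higher. HOXC13:C10.1 was also at 95.3% of HOXC9-only sites and HOXC13:C10.2 at 88.6%, though these sites have no day 3 HOXC10 event. Both HOXC13:C10 chimeras together with neither HOXC10:C13 chimera were seen at 1261 sites (45.1%). HOXC13 events were found without a HOXC10:C13 event at 539 sites, and the reverse at 236. Median event sizes were 449.5 and 433.1 reads for the HOXC13:C10 chimeras, and 90.7 and 98.2 for the HOXC10:C13 chimeras.

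**Figure D2:**
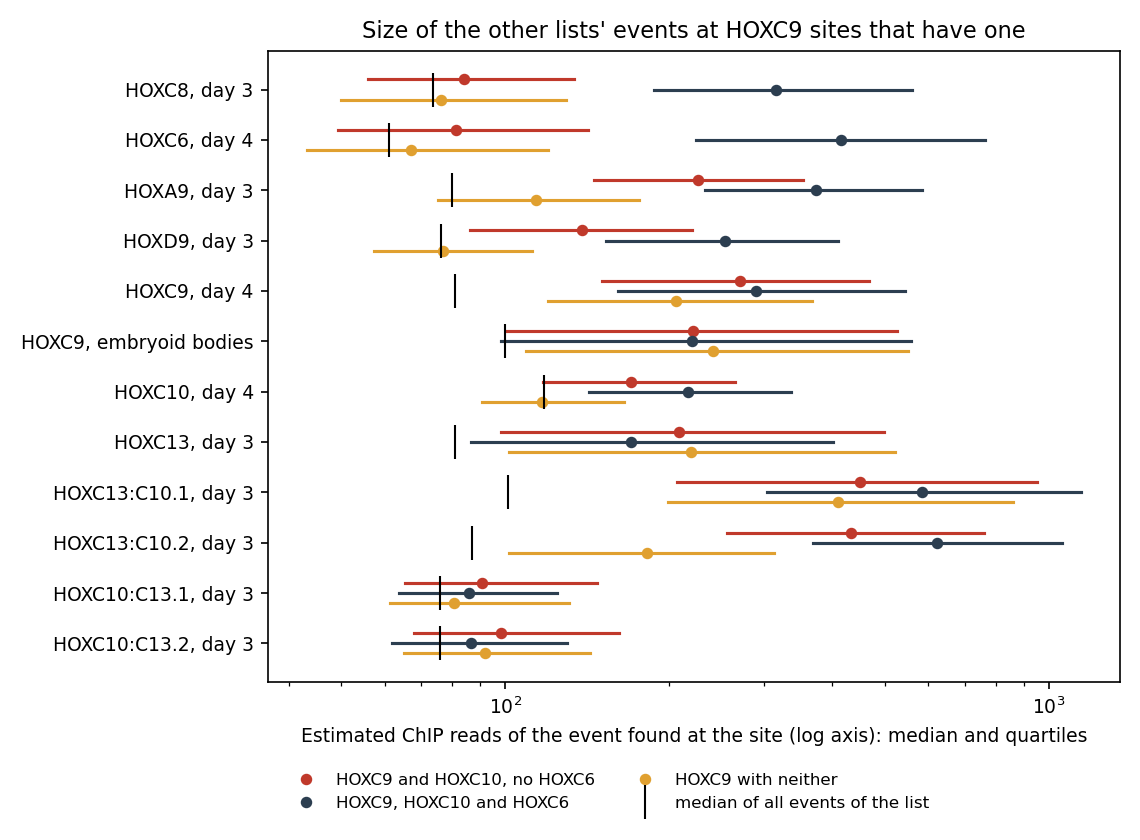
Estimated ChIP reads (log axis) of the event of each other HOX list found within 100 bp, as medians (points) and quartiles (bars) over the sites that have one, with a black line at the median of the whole list. HOXC8 and day 4 HOXC6 events at the HOXC9/HOXC10 sites (red) have medians of 84.1 and 81.2 reads, near their lists' medians and below the 315 and 414.9 of three-factor sites (dark blue).

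In total a site of this kind had events in a median of 9 of the 13 other HOX lists (quartiles 8 and 10), compared with 10 for three-factor sites and 7 for HOXC9-only sites. All 13 were present at 30 sites, and 0 of 2797 had none of them, which allows a share of up to 0.137%.

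MEIS was found at these sites mostly in the line that expressed HOXC9. An event lay within 100 bp at 53.9% of the sites in iHoxc9, 21% in iHoxc10 and 7.76% in iHoxc6, against 48.6%, 27% and 21.8% of all top HOXC9 events. At three-factor sites the shares were 68.0%, 51.1% and 46.9%, so the HOXC9/HOXC10 sites lay lower by 14.1, 30.1 and 39.2 points (differences of -14.1, -30.1 and -39.2). HOXC9-only sites had 20.6%, 2.95% and 2.27%, and the HOXC9/HOXC10 sites exceeded these by 33.3, 18.1 and 5.49 points. The MEIS lists differ in length, with 22703 events in iHoxc9, 12928 in iHoxc10 and 8154 in iHoxc6, and each is 1 library. With each cut to its 8154 largest events, a comparison chosen after seeing the data, the shares became 32.0%, 14.2% and 7.76% at the HOXC9/HOXC10 sites and 46.5%, 41.1% and 46.9% at three-factor sites. The order of the lines at the HOXC9/HOXC10 sites was thus kept at equal list length, while the spread over lines at three-factor sites narrowed. The sites were chosen among the largest HOXC9 events and for having no HOXC6 event, which favours this order. With full lists the same order was seen at all top HOXC9 events and at HOXC9-only sites.

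**Figure D3:**
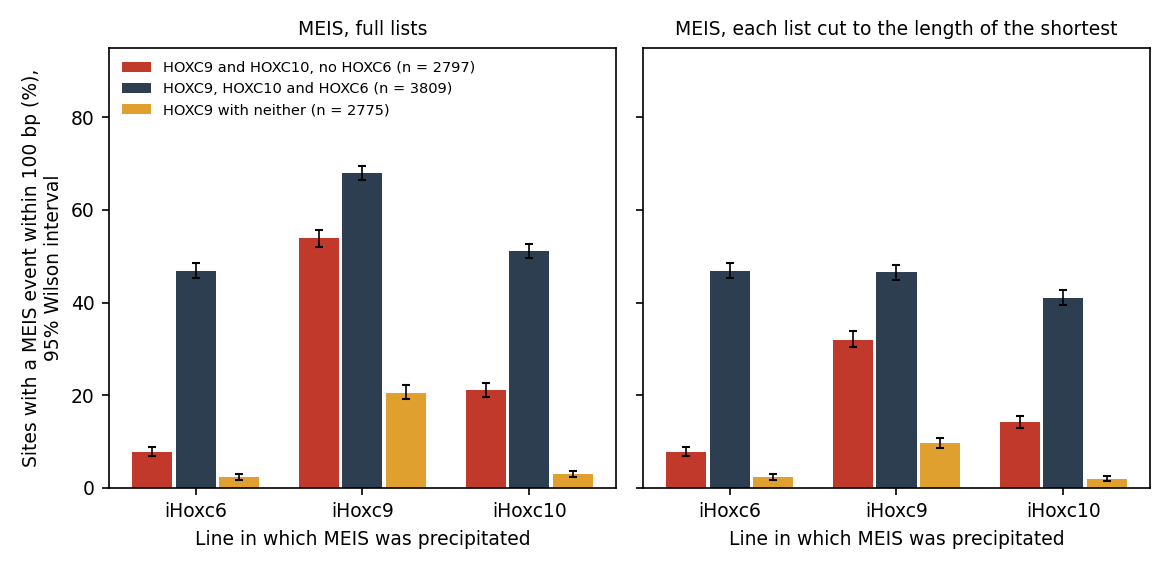
Share of sites (percent, y axis) with a MEIS event within 100 bp in the lines iHoxc6, iHoxc9 and iHoxc10, with full lists at left and lists cut to 8154 events at right; bars are classes of sites and whiskers 95% Wilson intervals. At the HOXC9/HOXC10 sites (red) the iHoxc9 bar is the tallest in both panels (53.9% and 32.0%).

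Site by site, MEIS was in no line at 1269 (45.4%), in iHoxc9 alone at 913 (32.6%), in iHoxc9 and iHoxc10 but not iHoxc6 at 388 (13.9%) and in all 3 lines at 186 (6.65%). MEIS in iHoxc9 without iHoxc10 was seen at 934 sites and the reverse at 14. Sites with MEIS in iHoxc9 had HOXC10 at day 4 more often than those without (80.2% and 48.3%), by 32.0 points (28.5 to 35.3). They also held the TALE-type letters more often: TGATTTAT at 10.9% and 3.65%, and TGACAG, a MEIS half-site, at 14.1% and 8.30%. PBX events were rare in these lists. The PBX lists held 1164 and 848 events, with 0.009 and 0.008 of reads in events, and reached 6 sites in iHoxc9 (0.215%, against 0.28% of all top events) and 1 in iHoxc10 (0.0358%, against 0.08%), the latter share equal to that of the shifted positions.

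The letters under the sites set them apart from three-factor sites. Motifs were searched on both strands within 50 bp of the HOXC9 event. The letters of posterior Hox proteins, TTTAT, read as ATAAA on the other strand, were found at 2071 sites (74.0%, interval 72.4 to 75.6), against 66.1% of all top events and 54.7% of three-factor sites, 19.3 points more than the latter (17.0 to 21.6). HOXC9-only sites had 75.6%, a difference of -1.60 points (-3.87 to 0.68) that was not called, but was called with a limit of 200 bp (-3.06, interval -5.36 to -0.745) and with the top 20000 events (-3.60), and was 0.957 within 25 bp of the event. In windows of the same length 1 kb away the share was 34.9%. More than 1 copy was present at 36.1% of the HOXC9/HOXC10 sites, 16.7% of three-factor sites and 38.6% of HOXC9-only sites. TTTAC, which shares its first 4 letters and is preferred by HOXC13, was found at 35.6% (29.4% of all top events), 12.1 points more than at three-factor sites (9.83 to 14.3). HOXC9-only sites had it at 32.6%. Of the other endings, TTTAA was found at 39.6% of the HOXC9/HOXC10 sites and 36.8% of three-factor sites, and TTTAG at 22.5% and 21.7%.

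The central letters TAAT (ATTA on the other strand) showed no called difference from three-factor sites. They were found at 76.3% of the sites (77.1% of all top events; 54.3% in the windows 1 kb away), with a difference of -0.56 points from three-factor sites (-2.64 to 1.5) that changed sign in 6 alternatives without a call. TAAT without TTTAT was seen at 19.7% of the HOXC9/HOXC10 sites, 35.4% of three-factor sites and 19.9% of HOXC9-only sites. Of the HOXC9/HOXC10 sites, 174 (6.22%) held neither. Where TTTAT was present within 100 bp it lay within 10 bp of the event at 40.7% of the sites. That share was 29.0% at three-factor sites and 36.2% at HOXC9-only sites.

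The composite TGATTTAT, which joins a TALE-type TGAT to posterior Hox letters and so also counts as TTTAT, was found at 211 sites (7.54%; 5.61% of all top events; 0.804% in the windows 1 kb away). This was 4.05 points above HOXC9-only sites (2.86 to 5.26) and 1.51 points above three-factor sites (0.28 to 2.76). The latter difference turned to -0.684 within the first 2500 HOXC9 ranks. TGATTAAT, its counterpart with TAAT, was found at 1.64% (1.58% of all top events). The remaining letters are those of other families of factors. TGACAG (MEIS) was at 11.4% of the sites and 11.9% of all top events, CAGCTG (bHLH proteins) at 7.44% and 7.95%, ACAAAG (Sox proteins) at 12.8% and 14.3%, and GGGCGG (Sp and Klf proteins) at 0.930% and 0.84%. At three-factor sites these shares were 13.4%, 10.6%, 15.3% and 1.05%. A match of letters is a description and not a measured site. The GC content of the 101 bp had a median of 40.6%, against 41.6% at three-factor sites and 38.6% at HOXC9-only sites.

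Most of the sites lay far from genes' start sites, in introns or between genes. In the GENCODE annotation 50.7% were in an intron (50.1% of all top events), 46.3% were intergenic (46.7%) and 3.04% were in an exon (3.25%). A transcription start lay within 1 kb of 4.68% (4.22%), a protein-coding start within 1 kb of 2.57% (2.4%), and the former share did not differ from the 5.01% of three-factor sites by a called amount, whereas for a start within 5 kb the difference was -3.09 points and called. The nearest protein-coding start was over 50 kb away at 59.4% (57.3% of all top events), 5.02 points more than at three-factor sites. The share was 59.9% at HOXC9-only sites, with no called difference. It was over 500 kb away at 10.4% of the HOXC9/HOXC10 sites (10%). The median distance was 74.6 kb, against 60.8 kb for three-factor sites and 78.0 kb for HOXC9-only sites. The sites made up between 21% (chromosome X, 30 sites) and 35.9% (chromosome 18, 151 sites) of each chromosome's top HOXC9 events. Other members of the class lay within 10 kb of 641 sites (22.9%). There were 44 groups of 3 or more, and the 5 groups of 4 were nearest to Zfp608, Pbx3, Pde11a, Fto and Irak1bp1.

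By nearest protein-coding start, the sites fell to 1598 genes, 7.35% of 21728. Of these genes, 1018 had 1 site, 86 had 5 or more and 750 (46.9%) had no three-factor site. Among all 21728 protein-coding genes, 2009 (9.25%) had a three-factor site and 3448 (15.9%) had any top HOXC9 event. Whether the 46.9% is particular to genes of the HOXC9/HOXC10 sites was not tested. The assignment is by distance only, and no expression was measured here. Among the 15 genes with most sites, Auts2, a chromatin regulator of neurons, had 15 of 45 top HOXC9 events, Adgrl3 (latrophilin 3, an adhesion receptor at synapses) 13 of 25, Zfp608 (a zinc finger gene) 13 of 40, Aff3 (an elongation complex subunit) 11 of 21 and Cdh2 (N-cadherin) 10 of 21. The next 8 genes had 9 sites each: Arrdc3, Skap2, Pbx3 (a TALE cofactor), Ptprd (a receptor phosphatase), Pcdh9 (a protocadherin), Pik3c3, Robo2 (a Slit receptor) and Foxp1 (a factor of limb-level motor neurons). Flrt2, a latrophilin ligand, and Ntm, a cell adhesion gene, had 8. These 15 genes were chosen for having most HOXC9/HOXC10 sites, which favours an excess over the other classes. Three-factor sites were fewer than HOXC9/HOXC10 sites at Adgrl3 (3 against 13), Flrt2 (3 against 8), Pik3c3 (2 against 9) and Foxp1 (5 against 9). They were also fewer at Aff3 (6 against 11), Cdh2 (4 against 10), Pbx3 (6 against 9), Pcdh9 (7 against 9), Ntm (6 against 8) and Arrdc3 (8 against 9). They were more numerous at Auts2 (24 against 15), Zfp608 (18 against 13), Robo2 (16 against 9) and Ptprd (10 against 9), and equal at Skap2 (9 each). Flrt2 had 12 HOXC9-only sites. Skap2 lies beside the HoxA cluster, and its strongest site, in an intron 0.441 kb from a start, had 1484.3 HOXC9 and 592.5 HOXC10 reads.

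**Figure D4:**
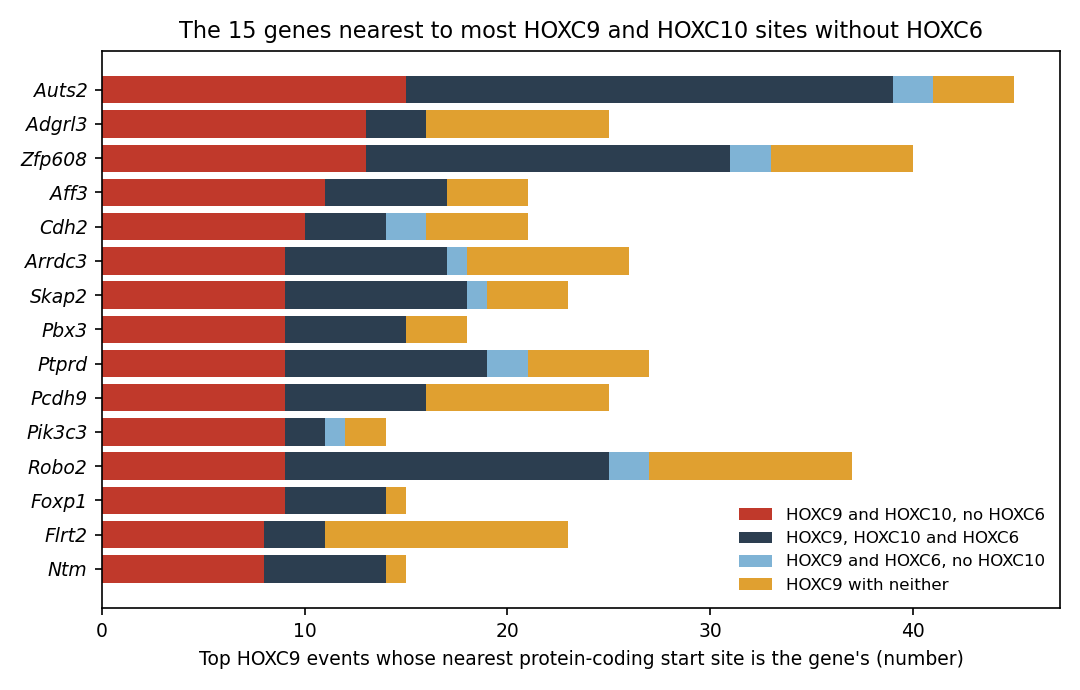
Number of top HOXC9 events (x axis) whose nearest protein-coding start is that of each of the 15 genes with most HOXC9/HOXC10 sites, split by class (colours). Auts2 has 15 such sites among 45 events, and Adgrl3, Pik3c3 and Flrt2 are among the genes with more of them than three-factor sites. The choice of genes by these sites favours that order.

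In the Hox clusters the sites, like the top HOXC9 events in general, fell to genes of the anterior and central groups. Of 23 Hox genes of paralog groups 1 to 8, 11 were nearest to at least 1 site (14 sites in all), against 17 for any top HOXC9 event and 11 for three-factor sites, and of 16 genes of groups 9 to 13 there were 0, with 0 nearest to any top HOXC9 event. The 14 sites lay between 0.059 and 3.86 kb from a start, and 8 were within 1 kb. HOXC9 at day 4 and both HOXC13:C10 chimeras were at 14 of 14, HOXA9, HOXD9, HOXC13, day 4 HOXC10 and embryoid body HOXC9 at 13 each, HOXC8 at 7, day 4 HOXC6 at 8 and embryoid body HOXC6 at 0. MEIS in iHoxc9 was at 9, in iHoxc10 at 5 and in iHoxc6 at 2.

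Single sites in the clusters had unlike profiles. At a site 0.121 kb from an annotated Hoxc6 start, in an intron of Hoxc5, HOXC9 had 1565.6 reads, HOXC10 479, HOXA9 1365.4 and HOXC13 1466.1. It had no HOXC8 or day 4 HOXC6 event, and the nearest day 3 HOXC6 event was 16.5 kb away. Another site, 0.483 kb from a Hoxc6 start, had 1361.4 HOXC9 reads, 32.3 of HOXC8 and no day 4 HOXC6 event. The site 0.1 kb from the Hoxa5 start, in an exon, had 975.8 HOXC10 and 435.7 HOXC9 reads, 664.2 of HOXC8 and a HOXC6 event 0.108 kb away, just outside the limit. A site 0.116 kb upstream of the Hoxb8 start had 1129.8 HOXC9 reads, 3514.1 of HOXC13 and no event of HOXC8, day 4 HOXC6 or MEIS in any line. At Hoxc4 a site 0.059 kb from the start had 1775.8 HOXC9 reads, with MEIS in all 3 lines.

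The other gene lists, chosen with results of these data known, are given as counts of genes nearest to at least 1 site, beside the 7.35% of all protein-coding genes. Any top HOXC9 event was nearest to 15.9% of all protein-coding genes and a three-factor site to 9.25%, and both counts follow for each list. Of 11 TALE cofactor genes 6 had a site (28 sites), among them Pbx3 with 9 and Meis1 and Meis2 with 5 each, while 6 had any top event and 5 a three-factor site. Motor neuron identity genes had 13 of 30, among them Foxp1 with 9 sites, Ebf1 with 6, Bcl11a with 4 and Foxp2 with 3, against 21 with any top event and 16 with a three-factor site; Bcl11a had no three-factor site. Ventral progenitor patterning genes had 10 of 24, against 16 and 15, with 5 sites for Nkx6-1, a ventral homeodomain factor, 4 for Gli2, an effector of Sonic hedgehog, and 3 for Sox9. Retinoic acid pathway genes had 3 of 16, against 6 and 5, with 4 sites at Rarb, a retinoic acid receptor. In these last 3 lists more genes had a three-factor site than a HOXC9/HOXC10 site.

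Axon guidance and adhesion genes followed. Eph receptors and ephrins had 6 of 22 (8 with any top event, 8 with a three-factor site), with 7 sites each at Epha4, Epha5 and Epha7 and 4 at Efna5. Semaphorins, neuropilins and plexins had 7 of 31 (12 and 8). Slit, Robo and netrin genes had 8 of 18 (12 and 10), with 9 sites at Robo2, 6 at Robo1 and 5 each at Slit2 and Dcc. Classical cadherins had 12 of 20 (16 and 12), with 10 sites at Cdh2 and 4 each at Cdh8 and Cdh9. Teneurins and latrophilins had 6 of 10 (7 and 6), with 13 sites at Adgrl3, 8 at Flrt2, 6 at Tenm3 and 5 at Tenm4. Gene length was not tested. Among transcription factor families, Tshz, Zfhx and Irx genes had 9 of 10 (10 and 9; Zfhx3 had 7 sites), Sox genes 5 of 15 (7 and 6) and bHLH neurogenic genes 4 of 26 (9 and 5). Neurotrophic factor receptors had 6 of 12 (8 and 6), Notch pathway genes 2 of 18 (5 and 5), Wnt ligands and receptors 1 of 31 (Wnt9b; 7 and 4), and Bmp, Tgfb and Fgf ligands 3 of 34 (7 and 4). Cdx and caudal axis genes had 0 of 9 (2 and 1), pluripotency genes 2 of 16 (5 and 4) and blood and immune lineage genes 2 of 20 (3 and 2). HOXC9-only sites, nearest to 7.34% of all genes, reached more Eph (8), semaphorin (9), Slit (9), cadherin (14) and teneurin (7) list genes. They also reached more Wnt (2) and Bmp (5) list genes. They reached fewer Hox 1 to 8 (1), TALE (4), motor neuron (10), ventral (8), retinoic acid (2), Tshz (8), Sox (2) and Notch (0) genes. In the remaining lists the numbers were equal.

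The sites with most reads illustrate the range. The 10 with most HOXC9 reads (3315.5 to 4848.2) were nearest to Prok2, Dab2, Snrnp27, Sp4, Sox14, Thap1, Npas3, Asph, Eri3 and Bend5, with 6 in introns and 4 intergenic, and a HOXC6 event was 3.61 to 86.3 kb away. HOXA9, HOXD9, HOXC13, HOXC9 in both other conditions and both HOXC13:C10 chimeras had events at 10 of 10, HOXC8 at 8, day 4 HOXC6 at 9, MEIS in iHoxc9 at 8, in iHoxc10 at 3 and in iHoxc6 at 0. Their HOXC8 events ranged from 42.8 to 491.4 reads and their HOXA9 events from 590.3 to 2597.9.

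At the Prok2 site HOXC9 had 4848.2 reads, HOXC10 135.8, HOXA9 1410.6, HOXD9 82 and HOXC13 3207.6, with none for HOXC8 and 42.2 for day 4 HOXC6. At the Dab2 site HOXC9 had 4383.1 reads, HOXA9 2597.9, HOXD9 888.5 and HOXC13 790.4, and MEIS in iHoxc9 had 444.1. The Eri3 site had 12732.4 reads of HOXC9 in embryoid bodies and 3485.9 at day 3. Read counts of different lists are not scaled to each other.

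The 10 sites with most HOXC10 reads (781.8 to 1399.4) shared none with the former set. They were nearest to Nell2, Rarb, Meis2 (2 sites), Chrna7, Hoxa5, Pkia, Cfap58, Foxb1 and Flrt2, and the Chrna7 and Hoxa5 sites had a HOXC6 event 0.101 and 0.108 kb away. MEIS was more widespread here, in iHoxc9 at 9, in iHoxc10 at 7 and in iHoxc6 at 3. HOXC13 was at 7 of 10 and embryoid body HOXC9 at 6. The pair in Meis2 introns had 1757.3 and 2874.7 HOXC9 reads, 1092.5 and 993.2 HOXC10 reads and 1381.3 and 898.1 day 4 HOXC10 reads, and differed in HOXC9 of embryoid bodies (299.4 and 3026.3).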

How the data were processed

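ChIP-seq binding events were analysed as deposited. The authors aligned reads to mm10 with Bowtie 1.0.1, keeping unique hits, and called events over each factor's pooled libraries with MultiGPS at q under 0.001; the submitters' processing notes also name Picard 2.8.2. Per the file headers each event has an estimated count of ChIP reads, a log2 fold over a control library and a score, the log2 of its q-value. Day 3, day 4 and embryoid body lists used different controls, and within day 3 HOXC8, MEIS and the chimeras used another (20.3 M reads) than the rest (20.6 M). Headers of the day 4 files name other days than the labels, which were followed. The authors' edgeR 3.22.5 columns, which compare conditions, and the track files were not used. The 2 control samples were not analysed here. Events within 100 bp were taken as shared. The window of motifs was 50 bp to each side. Genes came from GENCODE release 21 and sequence from RefSeq GRCm38.p6; all events lay within its chromosome lengths. The read counts used pool libraries, so no test over replicates was run and no p is given. The members, gene lists and motifs were chosen with earlier results of these data known. Named were the 15 genes with most sites (ties by summed HOXC9 reads), up to 4 genes with most sites in each of 21 lists, Hox genes, and the 10 sites with most reads of each factor. Python 3.11.15, numpy 2.4.6, pandas 2.3.3 and matplotlib 3.10.9 were used, and functions were tested on simulated data. The distance, the number of top events, the ranking, the HOXC10 and HOXC6 conditions, list length, q, window and start-site distance were varied.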

Additional observations from a re-analysis of the deposited data

How the results depend on the processing

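No paired analysis was possible because the read counts used pool the libraries of a list, and for the same reason no library was left out. There were 18 alternatives, of which those on HOXC9 ranks, HOXC10 reads and MEIS list length were chosen after seeing the data. For 35 differences and 2 counts, 360 of 413 values kept the sign and call of a difference or stayed within 1.5 times a count, and 25 of 37 results did so throughout, among them TTTAT, HOXC8, HOXA9, HOXD9, HOXC13 and MEIS against three-factor sites. The cause of the changes was not tested. The sites numbered 1332 with the top 5000 HOXC9 events, 5500 with the top 20000 and 1577 with the top 10000 HOXC10 events only. Differences in points against three-factor sites were as follows. Day 4 HOXC9 gave -0.36 (50 bp), 1.09 (top 20000), 0.72 (top 10000 HOXC10 events), 0.58 (lists cut to 17898), 0.60 (ranks 1 to 2500) and 0.31 (100 to 200 HOXC10 reads). Day 4 HOXC10 gave -1.70 (top 10000 HOXC10 events) and 4.68 (100 to 200 reads). HOXC13:C10.1 gave -0.551 (ranks 1 to 2500) and -2.07 (ranks after 7500), and HOXC13:C10.2 gave -0.355 (top 5000), -0.16 (ranks 1 to 2500), -0.796 (ranks after 7500) and -0.444 (100 to 200 reads). HOXC10:C13.1 gave -3.18 (top 20000), 0.327 (top 10000 HOXC10 events), 1.78 (cut lists), 0.163 (q under 1e-06), 2.02 (ranks after 7500) and 8.48 (100 to 200 reads). HOXC10:C13.2 gave -0.822 (50 bp), -1.33 (top 20000), -0.413 (top 10000 HOXC10 events), 4.56 (cut lists), 3.25 (q under 1e-06) and 7.13 (100 to 200 reads). TAAT gave 0.184 (200 bp), 0.261 (top 10000 HOXC10 events), 0.225 (no HOXC6 within 500 bp), 0.871 (25 bp window), 0.515 (100 bp window) and 1.957 (100 to 200 reads). TGATTTAT gave 0.379 (top 5000), 0.813 (100 bp window), -0.684 (ranks 1 to 2500) and 1.87 (ranks after 7500). A start within 1 kb gave 0.119 (top 20000), and a start within 5 kb -3.09. Against HOXC9-only sites, embryoid body HOXC9 gave -3.37 (200 bp), -4.48 (top 20000), -3.17 (top 10000 HOXC10 events), -3.04 (no HOXC6 within 500 bp) and -2.83 (q under 1e-06). TTTAT gave 0.023 (50 bp), -3.06 (200 bp), -3.60 (top 20000), -2.45 (no HOXC6 within 500 bp), 0.957 (25 bp window), -1.68 (100 bp window) and -4.48 (ranks after 7500).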
